A study of Mus musculus with 4 samples.

Results

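C4b encodes complement component 4B of the mouse and is 1 of 383 genes whose transcripts were counted by MERFISH, an imaging method that reads out single mRNA molecules in tissue. It was chosen because earlier results of these sections showed that its level differs between glial classes, between white and grey matter and between ages. These differences are therefore given below as descriptions without a test. Brain slices through the striatum of C57BL/6NTac mice, for which the labels name no transgene or treatment, were compared between 2 months (Young, 2 sections) and 18 months (Aged, 2 sections). Each section is a 10 µm coronal slice of frozen brain that holds both hemispheres. The study's methods call its replicates biological, while the labels tie no section to an animal and give no sex, so spreads and p-values refer to sections. The comparison asks how cells of the striatum differ between young adult and aged mice. Values below are from all kept cells of a slice, which also holds tissue outside the striatum, unless the striatum is named.

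Complement is a cascade of proteins that tags and removes microbes, debris and, in the brain, synapses. C1q (C1qa, C1qb, C1qc) recognises a target, and the enzyme complex it activates cleaves C4, whose fragment binds covalently to the target and helps to cleave C3. C3 fragments are then read by receptors on microglia such as C3ar1 and the integrin subunit Itgam, while Clu and Vtn restrain the cascade. Astrocytes are a known source of C4 in the brain, and C4b is often listed among genes that are higher in glia of aged brain.

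In the mouse annotation of RefSeq (GRCm38.p6) C4b lies on chromosome 17 at chr17:34728139-34743902, on the minus strand, and is protein-coding. A near copy, C4a, lies 65.2 kb away at chr17:34809092-34823460 on the same strand and is annotated there as a transcribed pseudogene. Of all 30-base windows of the longest C4b transcript of the GENCODE annotation, which has 5379 bases, 49.7% are also found in a C4a transcript. The probe sequences were not used here, and transcripts of C4a decoded as C4b cannot be told apart from C4b.

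After the filter of the study (at least 10 genes and 50 µm³ per cell) 281824 of 320663 segmented cells were kept. The kept cells held 12093 C4b transcripts in Young replicate 1, 11095 in Young replicate 2, 13402 in Aged replicate 1 and 15200 in Aged replicate 2. The sections also differed in depth, with a median of 400 and 325 transcripts of all genes per kept cell in the young sections against 215 and 293 in the aged ones. Levels are therefore given as C4b transcripts per 10000 transcripts of all 383 genes in the same cells. Over all kept cells this level was 3.36 in Young replicate 1, 3.56 in Young replicate 2, 7.14 in Aged replicate 1 and 5.24 in Aged replicate 2. Both aged sections lay above both young sections.

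Cells were grouped into 7 classes by clustering on 364 genes, without C4b, the complement genes or the genes of glial reactivity, and each class was named by markers. Cells with markers of several classes were set aside, which left 17134 astrocyte-like, 17654 oligodendrocyte-like, 20186 vascular-like, 2808 oligodendrocyte precursor-like (OPC-like), 4776 microglia-like, 47357 medium spiny neuron-like (MSN-like) and 44783 other neuron-like cells. The 7 astrocyte markers summed to 2342 to 2574 per 10000 in astrocyte-like cells, against 51.0 to 81.0 in oligodendrocyte-like cells. C4b was highest in astrocyte-like cells in each of the 4 sections. The level there was 24.1 in Young replicate 1, 22.3 in Young replicate 2, 40.7 in Aged replicate 1 and 32.7 in Aged replicate 2. The class also held transcripts of 4 markers of neuroblasts, the young neurons that arise beside the ventricle, at 146 and 188 per 10000 in young sections against 50.5 and 67.6 in aged ones. Astrocyte-like cells exceeded neuron-like cells by 9.20, 10.2, 21.0 and 18.1 times in the same order of sections.

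Oligodendrocytes make the myelin of the white matter, and it was here that C4b differed most between ages. The level in oligodendrocyte-like cells was 4.55 in Young replicate 1 and 4.30 in Young replicate 2, against 37.8 in Aged replicate 1 and 26.7 in Aged replicate 2. In young sections the class therefore lay below the vascular-like cells, at 1.74 and 1.96 times the neuron-like level. In aged sections it lay just below the astrocyte-like cells, which were 1.08 times higher in the section where the classes were closest.

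The other classes lay below the astrocyte-like cells in each section. Vascular-like cells gave 8.05, 8.21, 8.38 and 8.21 in Young replicates 1 and 2 and Aged replicates 1 and 2, with no separation of the ages. OPC-like cells, the dividing precursors of oligodendrocytes, gave 2.71, 2.16, 4.91 and 7.99. Microglia-like cells, the resident macrophages of the brain, gave 1.80, 1.91, 4.08 and 2.34. Both aged sections were above both young sections in these last classes, but the counts were small, with 29 to 54 C4b transcripts per section in OPC-like and 23 to 45 in microglia-like cells. MSN-like cells, the main neurons of the striatum, gave 1.63, 2.22, 1.95 and 2.05, and the other neuron-like cells gave 2.62, 2.19, 1.94 and 1.80.

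The order of the mean levels over 4 sections was astrocyte-like (29.9), oligodendrocyte-like (18.4), vascular-like (8.21), OPC-like (4.44), microglia-like (2.53), neuron-like (2.14) and MSN-like (1.96). Astrocyte-like cells were above oligodendrocyte-like cells in 4 of 4 sections, vascular-like above OPC-like cells in 4 of 4, and OPC-like above microglia-like cells in 4 of 4. Oligodendrocyte-like cells were above vascular-like cells in 2 of 4 sections, both aged. Microglia-like cells were above neuron-like cells in 2 of 4 sections, and neuron-like above MSN-like cells in 1 of 4, so these lowest classes were not ordered beyond their spread. Stray transcripts can be assigned to any segmented cell, and the level of about 2 per 10000 in neurons was taken as the background. The microglia-like level in young sections lay below it. The mean ratio to neuron-like cells was 14.6 for astrocyte-like and 9.52 for oligodendrocyte-like cells, and 11.2 and 4.61 with cells of mixed markers kept. Per cell volume these ratios were 9.37 and 5.15, and that of microglia-like cells was 0.62 in place of 1.24.

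**Figure D1:**
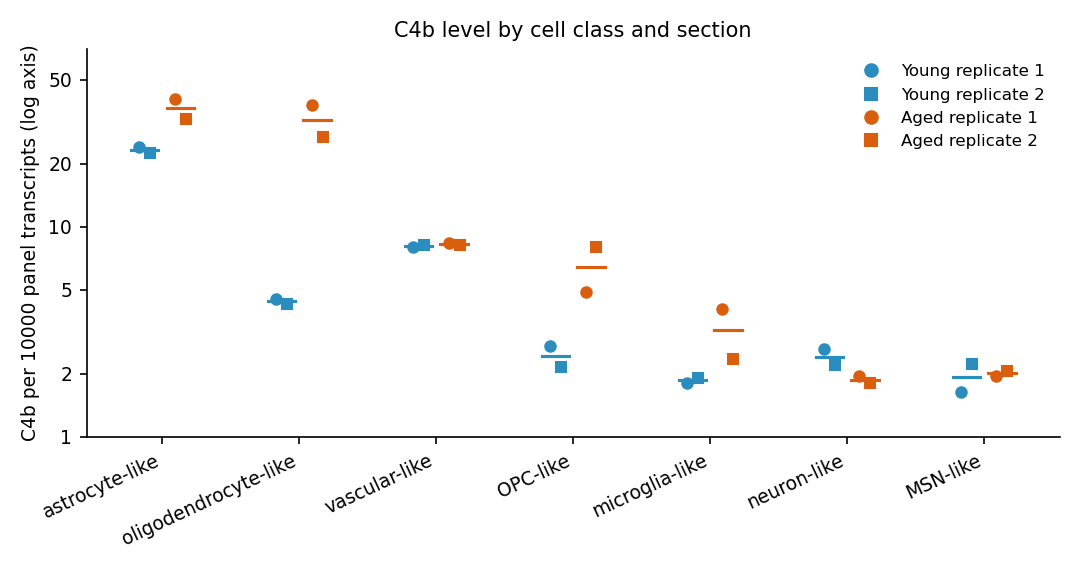
C4b transcripts per 10000 transcripts of the panel (log axis) in 7 cell classes, with 1 point per section and a line at the mean of the 2 sections of an age. Astrocyte-like cells are highest in every section, and oligodendrocyte-like cells go from about 4 in the young sections to 26.7 and 37.8 in the aged ones.

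The share of cells with at least 1 C4b transcript gave the same picture when each cell was thinned to 100 transcripts, so that depth was equal. This share was 17.3% and 15.4% of astrocyte-like cells in young sections, against 24.95% and 21.7% in aged ones. It was 3.35% and 3.75% of oligodendrocyte-like cells in young sections against 23.3% and 18.3% in aged ones. Neuron-like cells, taken as the background, gave 2.995% and 2.11% against 1.91% and 1.78%. Young oligodendrocyte-like cells were thus within about 2 percentage points of that background. Thinning left out the 43.7% of astrocyte-like and 40.8% of oligodendrocyte-like cells with fewer transcripts. Without thinning the mean shares were 19.5% (young) and 24.3% (aged) in astrocyte-like, 6.37% and 21.8% in oligodendrocyte-like and 8.34% and 5.38% in neuron-like cells, where the median neuron-like cell held 302 transcripts in young and 248.5 in aged sections, against 126 and 110.5 in astrocyte-like cells.

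Within a class the transcript was spread unevenly over cells. No C4b transcript was seen in 78.2% of all astrocyte-like cells, 12.6% held 1 and 24 cells held 10 or more, with a maximum of 14. The 10% of astrocyte-like cells with the most C4b held 72.4% of the transcripts of the class. Among oligodendrocyte-like cells 93.7% and 93.6% were at 0 in the young sections, against 78.0% and 78.3% in the aged ones. Cells with 10 or more transcripts numbered 2 and 1 in the young sections against 24 and 13 in the aged ones, with a maximum of 22. Cells share their section, so these counts describe the sections and are not replicates.

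Because cell classes differ in number and in depth, the C4b transcripts of a section were also divided among the classes, with cells of mixed markers included. Astrocyte-like cells were 9.54% to 10.8% of the cells and held 29.7% and 24.4% of C4b transcripts in young sections against 28.5% and 26.5% in aged ones. Oligodendrocyte-like cells held 9.61% and 10.6% in young sections against 36.6% and 32.5% in aged ones. Their share of the cells was 12.1% and 11.8% in young sections against 16.5% and 16.9% in aged ones, so the share of C4b differed by more than the share of cells. Neuron-like cells held 25.8% and 30.03% in young sections against 11.9% and 14.7% in aged ones, and MSN-like cells 18.3% and 16.5% against 9.18% and 11.8%. Shares of a section sum to 100, so a higher share in 1 class lowers those of the others. The mean C4b level itself was 2.40 (young) and 1.87 (aged) in neuron-like and 1.93 and 2.00 in MSN-like cells.

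**Figure D2:**
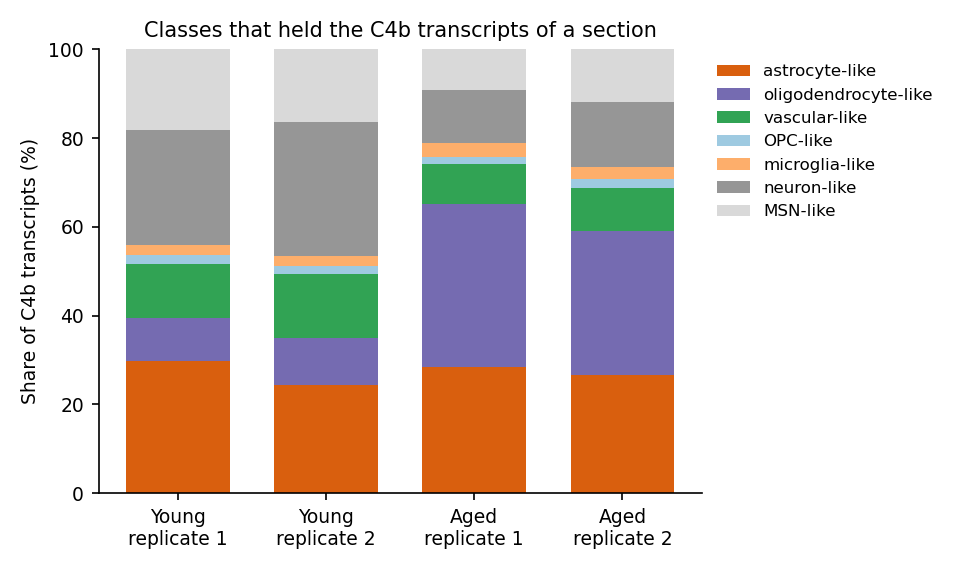
Share of the C4b transcripts of each section (percent, stacked to 100) found in each of 7 cell classes, cells of mixed markers included. The astrocyte-like share stays between 24.4% and 29.7%, while the oligodendrocyte-like share is 9.61% and 10.6% in the young sections against 36.6% and 32.5% in the aged ones.

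The difference between ages was estimated for C4b in each class with edgeR on the counts summed per section, and is given with its standard error and without a p-value since C4b was chosen for it. In astrocyte-like cells the mean level was 23.2 ± 1.22 (SD, n = 2) in young and 36.7 ± 5.68 (SD, n = 2) in aged sections, 1.58 times higher, and the log2 fold change was 0.68 (SE 0.17). Neuroblast markers and 3 markers of dividing cells (27.1 and 31.5 per 10000 in young sections against 9.86 and 9.16 in aged ones) were lower in this class in both aged sections. In the 11466 astrocyte-like cells in which none of these 7 markers was detected C4b was 24.7 and 22.4 in young sections against 42.1 and 32.2 in aged ones, with a log2 fold change of 0.59 (SE 0.18). In oligodendrocyte-like cells it was 4.42 ± 0.177 (SD, n = 2) against 32.3 ± 7.84 (SD, n = 2), 7.30 times higher, with a log2 fold change of 2.75 (SE 0.24). OPC-like cells had a log2 fold change of 1.30 (SE 0.39), which was 1.59 without Aged replicate 1 and 0.96 without Aged replicate 2. White matter OPC-like cells gave 3.42, 1.79, 19.7 and 27.8 in Young replicates 1 and 2 and Aged replicates 1 and 2, on 4, 2, 13 and 17 C4b transcripts. Those of the grey matter gave 2.97, 2.09, 3.68 and 4.47, 1.61 times higher in the mean of the aged sections. Per 1000 µm³ of cell volume the grey matter values were 0.147, 0.0839, 0.0969 and 0.149, so that the ages overlapped. Those of the white matter were 0.162, 0.0618, 0.383 and 0.747 on this scale. Microglia-like cells had 0.61 (SE 0.40), which was 0.17 without Aged replicate 1 and 1.25 with cells of mixed markers kept. The estimates in vascular-like (0.05, SE 0.24), MSN-like (0.06, SE 0.27) and neuron-like cells (-0.31, SE 0.30) were within about 1 standard error of 0.

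To read these values against the rest of the panel, edgeR's quasi-likelihood test called 6.81% of 382 genes in oligodendrocyte-like cells at an adjusted p under 0.05, 7.67% of 378 in astrocyte-like, 9.52% of 336 in OPC-like and 0.888% of 338 in microglia-like cells. Genes higher in aged sections were 3.14%, 2.12%, 3.27% and 0.592% in the same order. The counts of 26, 29, 32 and 3 called genes ranged from 0 to 13 when 1 section was left out. Among these genes C4b had the second largest log2 fold change in oligodendrocyte-like cells, after Ano1 (2.77), a chloride channel gene. It ranked first in OPC-like cells, ahead of Il33 (1.24), the gene of an alarmin cytokine of glia. Il33 is also a leading gene of the oligodendrocyte-like cluster, and the part of oligodendrocyte transcripts in the OPC-like values was not tested. In astrocyte-like cells C4b ranked 11th, below C3 (1.71) and Vtn (1.60), which lead that list. In microglia-like cells it ranked 40th. The ranks use the contrast for which C4b was chosen and are a description.

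**Figure D3:**
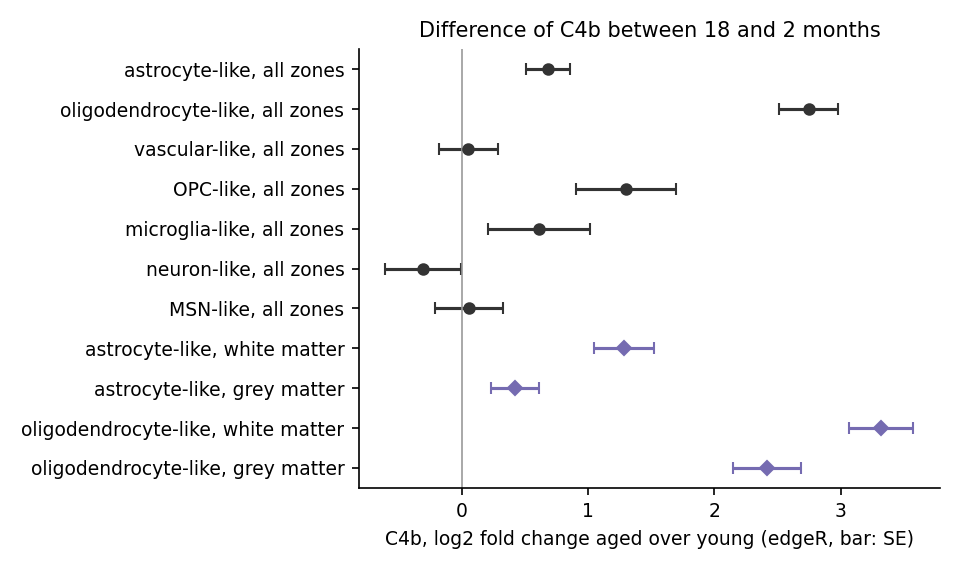
Log2 fold change of C4b between aged and young sections (edgeR) in 7 classes over all zones (circles) and in white and grey matter (diamonds), with bars of 1 standard error. Oligodendrocyte-like cells lie at 2.75 over all zones, 3.32 in white and 2.42 in grey matter, while vascular-like and MSN-like cells lie near 0.

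The striatum itself was approximated by the places where at least 40% of cells within 150 µm were MSN-like, which held 35.3% of kept cells. Astrocyte-like cells there gave C4b at 28.1 and 24.4 in young sections against 44.9 and 38.1 in aged ones, 1.58 times higher in the mean. Oligodendrocyte-like cells gave 3.53 and 4.69 against 34.9 and 26.8, 7.51 times higher. Both ratios were close to those of the whole slices. Vascular-like cells of the striatum were lower than those of the whole slices, at 3.48, 4.99, 5.14 and 5.01. Neuron-like cells gave 1.78 and 1.46 against 2.30 and 2.56, so that the aged sections were higher here and lower over the whole slices.

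The scale mattered for astrocyte-like cells. Aged sections held fewer transcripts of all genes per cell, and relative to cell volume C4b was 1.07 and 0.866 per 1000 µm³ in young sections against 1.08 and 1.15 in aged ones, 1.15 times higher in the mean. Young replicate 1 and Aged replicate 1 were nearly equal on this scale. In oligodendrocyte-like cells the levels per volume were 0.194 and 0.153 in young sections against 0.834 and 0.781 in aged ones, 4.65 times higher and without overlap. In neuron-like cells they were 0.177 and 0.138 against 0.078 and 0.102. Whether the per-transcript or the per-volume scale is nearer to the number of C4b molecules per cell was not tested.

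White matter was set as cells of which at least 50% of the 50 nearest cells were oligodendrocyte-like, grey matter as cells with at most 20%, and the rest as border. Astrocyte-like cells of the white matter, mostly fibrous astrocytes in textbook anatomy, held far more C4b than those of the grey matter. Their level was 52.9 in Young replicate 1, 68.5 in Young replicate 2, 149 in Aged replicate 1 and 120 in Aged replicate 2. In grey matter it was 23.2, 18.6, 31.7 and 24.6 in the same order. The ratio of white to grey was 2.28, 3.68, 4.71 and 4.89, higher than 1 in 4 of 4 sections and lower in both young than in both aged sections. Border cells lay at 20.3, 32.9, 40.9 and 34.6, nearer to grey than to white matter in each section. They were below grey matter in Young replicate 1 and above it in the other sections. White matter held 168, 169, 253 and 237 astrocyte-like cells, with 157, 177, 454 and 431 C4b transcripts.

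The difference between ages in astrocyte-like cells was larger in white than in grey matter. The mean white matter level was 60.7 ± 11.0 (SD, n = 2) in young and 135 ± 20.6 (SD, n = 2) in aged sections, with a log2 fold change of 1.28 (SE 0.24). In grey matter it was 20.9 ± 3.27 (SD, n = 2) against 28.1 ± 5.02 (SD, n = 2), with a log2 fold change of 0.42 (SE 0.19). The grey matter estimate was 0.20 without Aged replicate 1, 0.28 without Young replicate 2, 0.60 without Young replicate 1 and 0.61 without Aged replicate 2. Per volume the mean was 2.32 against 3.52 per 1000 µm³ in white matter, 1.51 times higher, and 0.876 against 0.854 in grey matter. The grey matter difference thus depended on the scale, while that of the white matter kept its direction.

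In oligodendrocyte-like cells white matter exceeded grey matter clearly in the aged sections. In white matter their level was 3.86 in Young replicate 1, 3.69 in Young replicate 2, 47.2 in Aged replicate 1 and 32.9 in Aged replicate 2. In grey matter it was 3.21, 4.04, 24.4 and 18.0. White to grey ratios were 1.20 and 0.914 in young sections, on either side of 1, and 1.93 and 1.82 in aged ones. Their mean was 1.47, and 2.93 with cells of mixed markers kept. Border cells lay at 7.19 and 5.88 in young sections against 33.1 and 20.7 in aged ones. The log2 fold change between ages was 3.32 (SE 0.26) in white and 2.42 (SE 0.27) in grey matter, and C4b ranked first among the 358 and 344 genes tested there. In astrocyte-like cells it ranked 4th of 202 genes in white and 42nd of 374 in grey matter. Differences between the zones in the age estimate were not tested, since C4b was chosen for both.

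**Figure D4:**
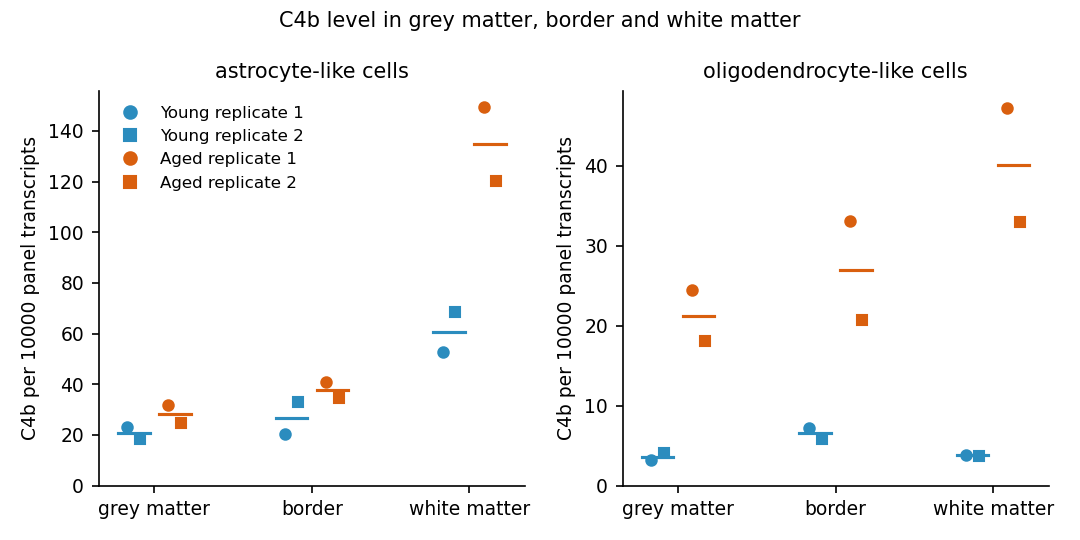
C4b transcripts per 10000 panel transcripts in grey matter, border and white matter, for astrocyte-like (left) and oligodendrocyte-like cells (right), with 1 point per section, a line at the mean of each age and separate vertical scales. White matter astrocyte-like cells reach 149 and 120 in the aged sections, and oligodendrocyte-like cells stay at or below 7.19 in every zone of the young sections.

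White matter was a small part of the tissue but held a larger part of C4b in aged sections. It made up 3.33% and 3.54% of kept cells in young sections against 5.51% and 5.36% in aged ones. Of all C4b transcripts 5.93% and 6.07% lay there in young sections, against 24.7% and 22.1% in aged ones. Over all white matter cells the level was 9.48 and 10.01 in young sections against 50.4 and 34.8 in aged ones, against 3.15, 3.32, 4.91 and 3.85 over all grey matter cells. How much white matter a section holds also depends on where it was cut. By the definition of the zones it depends as well on the share of oligodendrocyte-like cells, which was higher in aged sections. Border cells were 12.2% and 10.6% of kept cells in young sections against 20.3% and 22.2% in aged ones. The part of the cut and of the definition in the shares was not tested.

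Close contact of cells can place a transcript of 1 cell in another, so C4b was also measured in cells without markers of the other glia. Among oligodendrocyte-like cells in which no astrocyte marker and no Gfap was detected, the level was 2.77 and 4.07 in young sections against 29.9 and 22.3 in aged ones. In the white matter such cells gave 1.84, 3.29, 42.6 and 32.4, and in the grey matter 3.30, 4.90, 24.7 and 14.8. Over the whole class the 7 astrocyte markers summed to 51.0 and 55.2 per 10000 in young sections against 81.0 and 68.1 in aged ones. Astrocyte-like cells without any oligodendrocyte marker gave 22.6, 20.3, 38.0 and 29.4 over all zones, 59.95, 55.1, 160 and 124 in white matter and 22.1, 18.7, 32.6 and 23.5 in grey matter. The mean of the aged over that of the young sections was 7.62 in these oligodendrocyte-like and 1.57 in these astrocyte-like cells, against 7.30 and 1.58 in the whole classes. White matter was above grey matter in the aged sections in both classes and in the young sections in astrocyte-like cells, while young oligodendrocyte-like cells were lower in white than in grey matter in both sections.

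In the smaller classes few C4b transcripts were left. Microglia-like cells without astrocyte or oligodendrocyte markers gave 1.06, 2.39, 2.76 and 1.19, on 4 to 10 C4b transcripts per section, so that the ages overlapped. OPC-like cells free of astrocyte markers held 3, 3, 4 and 1 C4b transcripts, too few to compare. Those free of oligodendrocyte markers as well held 1, 0, 2 and 0 in the same order of sections. The summed astrocyte markers in OPC-like cells were 222 and 246 per 10000 in young sections against 331 and 394 in aged ones, and in microglia-like cells 85.1 and 111 against 166 and 147. They moved in the same direction as C4b, and their part in its values was not tested.

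The vascular-like class was mixed in C4b. In a finer clustering at resolution 1.0 fibroblast-like cells, which lie in the meninges and around large vessels, gave 28.1, 27.0, 25.3 and 26.0 in the 4 sections, a mean of 26.6. Endothelial-like cells, the lining of vessels, gave 1.98, 2.58, 2.88 and 2.93, and pericyte-like cells, which wrap capillaries, gave 2.30, 2.14, 3.15 and 2.41. Smooth muscle-like cells gave 3.70, 3.18, 7.67 and 4.80. C4b of fibroblast-like cells thus lay between that of young and of aged astrocyte-like cells, and both aged sections were below both young ones. Gfap, an astrocyte gene, was among the leading genes of a fibroblast-like cluster, and the part of astrocyte transcripts in its C4b level was not tested. Neuroblast-like cells were named by markers of young neurons near the ventricle. Their C4b was 12.98 and 14.99 in young sections against 18.6 and 16.3 in aged ones, on 103 to 174 C4b transcripts per section. Thbs4 and Sox9 were among the leading genes both of this neuroblast-like cluster and of an astrocyte-like cluster. Whether the C4b of the neuroblast-like cells lies in young neurons was not tested. Vascular-like cells as a whole held 875 to 923 astrocyte markers per 10000, and those without astrocyte or oligodendrocyte markers gave C4b at 2.03, 2.53, 1.52 and 2.37, near the neurons.

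Distance to the white matter was examined within grey matter cells only, so that the contrast of white and grey was not itself tested. The white matter was already known to differ in C4b, and the counts of grey matter cells entered that contrast. The p-values by distance are therefore not independent of the choice of C4b. Near cells lay within 150 µm of a white matter cell and far cells more than 500 µm from any. Near astrocyte-like cells gave 30.3 in Young replicate 1, 26.3 in Young replicate 2, 60.7 in Aged replicate 1 and 55.8 in Aged replicate 2. Far ones gave 20.3, 14.9, 24.4 and 18.2. C4b was higher in near cells in 4 of 4 sections, by 1.49, 1.76, 2.48 and 3.06 times, and edgeR's quasi-likelihood test with the section as a block gave a log2 fold change of 0.998 (SE 0.19, adjusted p = 0.000662 over 318 genes). The test called 37.4% of these genes, and 22.6% as higher in near cells, so a difference with distance was common, and C4b ranked 47th by fold.

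Markers of neuroblasts and dividing cells also differed with distance in this class. The 4 neuroblast markers summed to 476, 573, 366 and 190 per 10000 in near cells of Young replicates 1 and 2 and Aged replicates 1 and 2, and to 71.7, 59.9, 22.8 and 37.4 in far ones. Among astrocyte-like cells with none of these markers or those of dividing cells, near ones gave C4b at 36.01, 32.2, 62.1 and 59.1 and far ones at 20.4, 13.2, 24.9 and 17.5. C4b was again higher near white matter in 4 of 4 sections, with a log2 fold change of 1.24 (SE 0.17, adjusted p = 0.000379 by edgeR).

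Other genes also differed between near and far astrocyte-like cells. Thbs4, which encodes a thrombospondin, had a log2 fold change of 4.20 by edgeR, Dlx6os1, a neuroblast marker of the GABA neuron lineage, of 3.56, and Vim, an intermediate filament gene, of 1.46, while Gfap had 0.02 with an adjusted p of 0.918. Aqp4, the water channel of astrocytes, had -0.98 (adjusted p = 0.000524). Of the oligodendrocyte markers Tspan2 had 1.04 (adjusted p = 0.00462), Mobp 0.60 (adjusted p = 0.0801) and Mal -0.35 (adjusted p = 0.143), and their part in the C4b value was not tested. In cells without neuroblast or dividing cell markers Thbs4 had 4.44 and Vim 1.52, while Aqp4 had -0.37 (adjusted p = 0.0325), Tspan2 0.44 (adjusted p = 0.530) and Mobp 0.12 (adjusted p = 0.877) by edgeR. Thbs4 and Vim are also among the leading genes of a neuroblast-like cluster found at resolution 0.3. Regions of the section and distance to white matter cannot be told apart here.

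Astrocyte-like C4b was highest next to the white matter and lowest far from it at both ages. In the bins of 0 to 150, 150 to 300, 300 to 500, 500 to 1000 and over 1000 µm the young means were 28.3, 21.6, 26.0, 18.9 and 15.4, and the aged means 58.3, 33.1, 32.7, 26.7 and 14.1. Beyond 1000 µm the aged sections gave 14.4 and 13.8 and the young ones 17.6 and 13.2, so that the ages overlapped. The ratio of aged to young was 2.06 in the nearest bin and 0.915 in the farthest. Of the 5 bins the ratio was highest in the nearest, and no higher level of the aged sections was seen in the farthest, which is a description without a test. Per 1000 µm³ of cell volume the nearest bin gave 1.40 and 1.18 in young against 1.65 and 2.14 in aged sections. The farthest bin gave 0.680 and 0.461 against 0.325 and 0.438, and at 300 to 500 µm the ages overlapped on this scale. The make-up of the near cells also differed between ages. Their 7 astrocyte markers summed to 1274 and 1262 per 10000 in young sections against 1687 and 1993 in aged ones, while far cells held 2505 and 2648 against 2638 and 2591. In cells without neuroblast or dividing cell markers the ratio of aged to young was 1.78 near and 1.26 far from white matter. The part of the make-up in the ratio by distance was not tested.

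For oligodendrocyte-like cells of the grey matter the near level was 2.15, 6.25, 38.9 and 30.4 and the far level 2.75, 3.20, 18.9 and 16.6. Near was higher in 3 of 4 sections, and the log2 fold change was 0.99 (SE 0.23, adjusted p = 0.0277, edgeR, 232 genes, of which 8.62% were called and 5.6% as higher). This call was weak, with 57 to 92 near cells and 2 to 39 near C4b transcripts per section. It was lost without Young replicate 2 (adjusted p = 0.0502), Aged replicate 1 (0.180) or Aged replicate 2 (0.147). The log2 fold changes there were 0.94, 0.82 and 0.95, not far below that of all sections. Gfap, an astrocyte filament gene, was also higher in near oligodendrocyte-like cells (1.81, adjusted p = 0.0126).

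Neurons gave no difference past the threshold. The log2 fold change of near over far was 0.16 (SE 0.14, adjusted p = 0.574) in MSN-like and -0.36 (SE 0.27, adjusted p = 0.384) in neuron-like cells by edgeR, where 16.5% and 20.1% of genes were called. Vascular-like cells gave -0.17 (SE 0.28, adjusted p = 0.770), with 17.6% called.

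**Figure D5:**
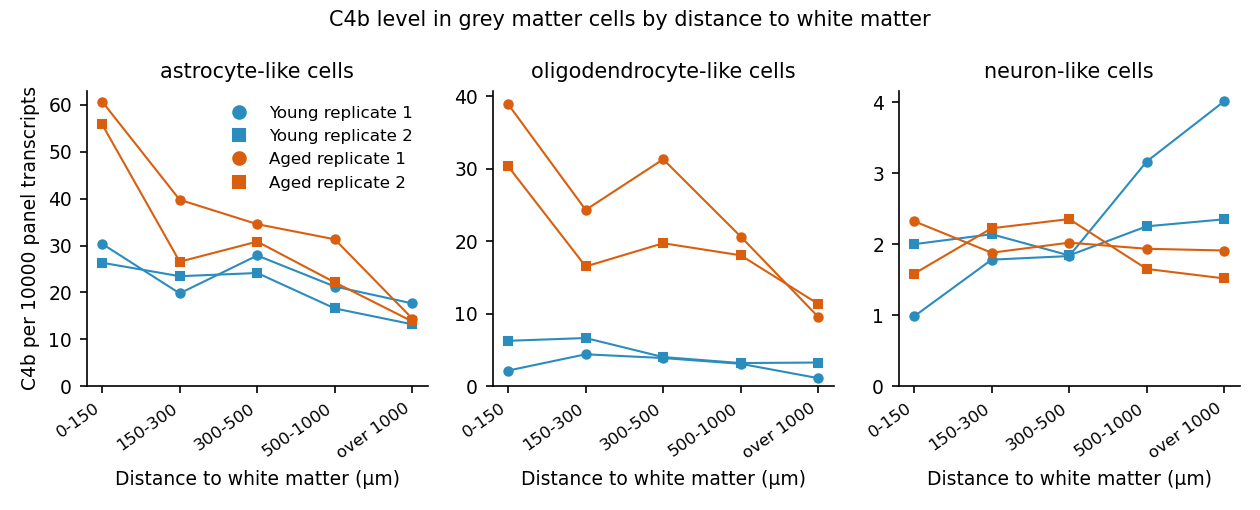
C4b transcripts per 10000 panel transcripts in grey matter cells by distance to the nearest white matter cell (µm, 5 bins), with 1 line per section and separate vertical scales for astrocyte-like, oligodendrocyte-like and neuron-like cells. Astrocyte-like cells of the aged sections go from 60.7 and 55.8 in the nearest bin to 14.4 and 13.8 beyond 1000 µm, where the young sections give 17.6 and 13.2.

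Gfap, the filament gene that marks fibrous and reactive astrocytes, was used to split astrocyte-like cells of at least 100 transcripts. Cells with Gfap detected gave C4b at 29.2 and 30.7 in young sections against 57.8 and 43.8 in aged ones. Cells without it gave 16.0 and 12.9 in young sections against 21.5 and 19.4 in aged ones. C4b was higher in Gfap-detected cells in 4 of 4 sections. In the grey matter alone Gfap-detected cells gave 28.5, 24.2, 42.7 and 30.9 and the others 16.2, 12.8, 21.8 and 18.0. The cells with Gfap were deeper, with a median of 190.5 to 242.5 transcripts against 161 to 184, and in white matter 2 to 8 cells per section lacked it, too few to compare.

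C3 and Vtn were the called genes among 8 other members of the complement system. Of these 8, 2 rose with age in astrocyte-like cells by edgeR's test and none fell: C3 (log2 fold change 1.71, SE 0.27, adjusted p = 1.24e-05) and Vtn (1.60, SE 0.45, adjusted p = 0.0216). Over the panel 2.12% of genes rose in this class. In cells without neuroblast or dividing cell markers C3 had 1.61 (adjusted p = 0.000363) and Vtn 1.60 (adjusted p = 0.0391). The Vtn call was lost when any 1 section was left out, with 0.29 (adjusted p = 0.907) without Aged replicate 1. The C3 call was lost without Young replicate 2 (adjusted p = 0.160) or Aged replicate 2 (0.0820) and at resolution 0.3, where the log2 fold change was 0.70 (0.408), or 0.36 (0.712) with the unweighted graph. The median over the 8 was 0.32, against 0.01 over the 378 genes. DESeq2 and limma each called 1 of the 8, and over the 4 glial classes the count of called complement genes was 1 without Young replicate 1 or Aged replicate 1 and 0 without Young replicate 2 or Aged replicate 2. In oligodendrocyte-like cells 0 of 8 passed, with 1 at an unadjusted p under 0.05 and 0 by DESeq2 or limma, and a median of 0.40. In microglia-like cells, where C1q is made, 0 of 8 passed, with 2 at an unadjusted p under 0.05 and 0 by DESeq2 or limma. C1qa, C1qb and C1qc had log2 fold changes of -0.31, -0.49 and -0.43 there, and C3ar1 of -0.24. In OPC-like cells 0 of 8 passed, with 0 at an unadjusted p under 0.05 and 0 by DESeq2 or limma. With 6.81%, 0.888% and 9.52% of the panel called in these 3 classes, 0 of 8 is near the background and says nothing particular of the list.

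Of 9 genes linked to glial reactivity, 0 passed in astrocyte-like cells by edgeR, with 1 at an unadjusted p under 0.05 and 0 by DESeq2 or limma. The panel was called at 7.67% there and at 6.81% in oligodendrocyte-like cells, so that 0 of 9 is near the background in both. Gfap had a log2 fold change of 0.14 there, and Serpina3n, a protease inhibitor often listed with C4b, of -0.11. In oligodendrocyte-like cells 0 of 9 passed, with 3 at an unadjusted p under 0.05, 0 by DESeq2 and 1 by limma, and Serpina3n had 0.79 (adjusted p = 0.170). Cp, the gene of the copper oxidase ceruloplasmin, rose in OPC-like cells (1.16, adjusted p = 0.000317), 1 of 9 where 9.52% of the panel was called. This call was lost without Young replicate 1, Aged replicate 1 or Aged replicate 2 (adjusted p of 0.152, 0.136 and 0.207) and with mixed cells kept (0.278). Gfap rose in microglia-like cells (1.26, adjusted p = 0.0139), 1 of 8 tested where 0.888% of the panel was called. Its call was lost without Young replicate 1 (adjusted p = 0.544) or Young replicate 2 (0.197), with the replicate block (0.456), with limma (0.0536) and with the unweighted graph at 0.08 (0.0596). The summed astrocyte markers were also higher in both classes in aged sections, as given above, and their part in these values was not tested. C4b thus had a larger estimate than each gene of both lists in oligodendrocyte-like and OPC-like cells. C4b was chosen for this contrast, so the comparison is a description. In OPC-like cells C4b had 1.30 (SE 0.39) and Cp 1.16 (SE 0.26), which overlap within their errors.

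Likeness of pattern was measured by Pearson's r of log2(level + 1) over 16 groups of class and zone, as a mean of 4 sections. The closest genes were Hopx (r = 0.904), A2m (0.899), Thbs4 (0.874), Igfbp5 (0.854) and Cbs (0.851). They share with C4b a high level in astrocyte-like cells of the white matter. Thbs4 was 216 per 10000 in white and 12.5 in grey matter astrocyte-like cells, and Igfbp5, an insulin-like growth factor binding protein, was 159 and 27.0. Groups share their sections and depth, so these coefficients are a description. None of the 5 is in the complement list.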

How the data were processed

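MERFISH data of 4 sections were used, grouped by the titles and age labels of the samples. The authors imaged the sections with a custom probe library and decoded transcripts with MERLIN, and the deposited values are the whole-number count of each of 383 genes per segmented cell, without normalization or filter. Cell volume, a signal in cubic micrometres, and position were also deposited by the authors and used as given.

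Cells with under 10 genes or 50 µm³ were removed, following the methods of the study. Log-normalized values of 364 genes (C4b and the 18 genes of the lists left out) gave 15 principal components and a graph of 20 shared nearest neighbours, clustered by the Louvain method (igraph 0.11.9) at resolution 0.08. This graph, which the study's methods name, replaced an unweighted graph that had joined astrocyte and OPC markers in 1 cluster. The change was made after the C4b levels of the unweighted clusters had been seen, and the unweighted graph was kept as an alternative. Clusters were named by at least 3 markers with a 1.5-fold excess, no authors' annotation of cells was used, and the rule that ties refuse a name was set after seeing the clusters. The vascular-like class pools endothelial, mural and fibroblast markers. Cells with at least 3 markers of their own class and 3 of another, 29.2% to 62.8% of a class, were left out. No doublet caller was run. Cell identifiers did not recur between sections.

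Counts were summed per class and section and compared with edgeR 4.0.16 (TMM, filterByExpr, quasi-likelihood test, Benjamini-Hochberg adjustment over all genes tested) in R 4.3.3, with DESeq2 1.42.0 and limma 3.58.1 as alternatives. Other steps used Python 3.11.15. The exact permutation test of 2 sections against 2 cannot go below p = 0.333 and was not used. On simulated counts edgeR called 78.9% of 71 genes changed by 1 on the log2 scale between ages of astrocyte-like cells (377 genes), 100.0% of 63 changed by 2, and 0 of 179 unchanged genes. In the comparison of near and far astrocyte-like cells (327 genes) it called 85.5% of 62 genes changed by 1 and 3 of 157 unchanged genes. Every simulated gene had the same dispersion (spread beyond counting noise) and no section effect, so these rates need not hold for the real counts.

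C4b, the gene lists and the markers were chosen with earlier results of these data known. Of the complement list 1 gene is not reported here, and its counts and medians leave it out. Named genes are C4b, the 2 lists, the markers, the 5 genes of most similar pattern and the leading genes of a rank. Ano1, Il33 and Vim and Thbs4 near white matter were named after their values were seen. The numbers inside the young data differ from those of the titles, so which young section is called replicate 1 follows the titles.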

Additional observations from a re-analysis of the deposited data

Results flagged for a closer look

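In vascular-like cells of the grey matter the ratio of C4b near white matter to C4b far from it lay on opposite sides of 1 at the 2 ages. It was 0.541 in Young replicate 1 and 0.619 in Young replicate 2, against 1.26 in Aged replicate 1 and 1.31 in Aged replicate 2. Near cells held 11, 14, 22 and 33 C4b transcripts in these sections. The difference between the ages was not tested. Over all sections edgeR's log2 fold change of near over far was -0.17 (adjusted p = 0.770), and its sign turned under 5 of 12 alternatives.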

How the results depend on the processing

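Alternatives with the unweighted graph, at least 100 transcripts per cell, the levels in the striatum, no cells with neuroblast or dividing cell markers and the age change per volume were chosen after seeing the data, as was the use of the fit's standard error to say that an age change moved. The ratio of C4b to neuron-like cells was, for astrocyte-like cells, 11.2 with mixed cells kept, 16.7 at resolution 0.3, 9.37 per volume and 12.01 and 17.1 with the unweighted graph at 0.08 and 0.3. For oligodendrocyte-like cells it was 4.61 with mixed cells kept and 5.15 per volume. For vascular-like cells it was 2.95, 5.63, 4.31 (at least 100 transcripts), 2.35 (per volume), 4.68 and 5.10, and for microglia-like cells 2.01 with mixed cells kept and 0.62 per volume. The mean white to grey ratio over sections kept its direction under all 14 alternatives in astrocyte-like cells (3.27 to 4.43). In oligodendrocyte-like cells it did so under all 13, from 1.31 to 2.93 (mixed cells kept). Leaving out 1 section gave 3.56 to 4.43 and 1.31 to 1.65 in the same order of classes. The oligodendrocyte-like mean covers both ages, with 1.20 and 0.914 in the young sections, so it gives no direction for young tissue.

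The age change of C4b per volume was 0.20 in astrocyte-like, 2.22 in oligodendrocyte-like, -0.38 in vascular-like, 0.81 in OPC-like, -0.39 in MSN-like and -0.81 in neuron-like cells. In microglia-like cells the mean per volume was 1.18 times higher in aged sections, against 1.73 times per transcript. With mixed cells kept the age change was 2.20 in oligodendrocyte-like, 0.33 in vascular-like, 0.77 in OPC-like and 1.25 in microglia-like cells. Leaving out 1 section gave 0.50 to 0.85 in astrocyte-like, 2.44 to 2.996 in oligodendrocyte-like, 0.02 to 0.09 in vascular-like, 0.96 to 1.59 in OPC-like, 0.17 to 0.96 in microglia-like, -0.19 to 0.37 in MSN-like and -0.37 to -0.25 in neuron-like cells. Replicate numbers did not pair the sections (correlation of -0.0933, -0.0932 and -0.0963 in 3 classes), and a replicate block gave C4b changes of 0.67, 2.72, 0.05, 1.28, 0.58, 0.08 and -0.31 in astrocyte-like, oligodendrocyte-like, vascular-like, OPC-like, microglia-like, MSN-like and neuron-like cells.

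The near over far difference of astrocyte-like cells kept its call under all 13 alternatives (0.80 to 1.51), with 0.80 to 1.19 when 1 section was left out. That of oligodendrocyte-like cells lost it under 7 of 9: 0.68 at resolution 0.3 (adjusted p = 0.187), 0.60 with a white matter limit of 40% (0.136), 0.61 and 0.67 with the unweighted graph (0.237 and 0.221), and 3 of 4 sections left out (0.82 to 1.02 over all 4). In vascular-like cells the sign turned, with 0.34 (mixed cells kept), 0.12 (resolution 0.3), 0.29 (limit of 60%), 0.0080 (unweighted graph, 0.3) and -0.38 to 0.030 without a section. With mixed cells kept MSN-like cells passed (0.34, adjusted p = 0.0498), as did microglia-like cells (1.52, adjusted p = 0.00242). Microglia-like cells had too few near cells in the main fit. A white matter limit of 40% allowed a fit of this class on 207 genes, which gave no value for C4b. In the striatum alone MSN-like cells had 0.03 (adjusted p = 0.954).

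The count of panel genes called with age in astrocyte-like cells was 8 with mixed cells kept, 4 at resolution 0.3, 16 and 19 with at least 50 and 100 transcripts and 19 and 9 with the unweighted graph, 8 without cells with neuroblast or dividing cell markers, and 1 to 13 without a section. In oligodendrocyte-like cells it was 5 with mixed cells kept, 15 and 14 with the unweighted graph and 0 to 4 without a section. In OPC-like cells it was 4, 55 (unweighted graph, 0.3) and 0 to 13. In microglia-like cells it was 0 with the replicate block, 1 with limma, 5 with mixed cells kept, 12 at resolution 0.3, 7 with at least 100 transcripts, 1 with the unweighted graph at 0.08 and 0 to 11 without a section. The replicate block gave 22, 24 and 27 in the other 3 glial classes. Complement calls over the glial classes numbered 0 at resolution 0.3, 1 with DESeq2, limma, mixed cells kept, at least 50 or 100 transcripts or either unweighted graph, and 0 to 1 without a section. Calls of reactive glia genes numbered 1 with the replicate block or mixed cells kept, 5 at resolution 0.3, 4 with at least 50 or 100 transcripts, 0 and 4 with the unweighted graph and 0 to 2 without a section. The cause of these moves was not tested. The striatum alone for classes other than MSN-like, and some limits for oligodendrocyte-like cells, left under 50 near cells in a section and gave no value, and the unweighted graph at 0.08 gave no OPC-like class. The depth of OPC-like and microglia-like cells limits their values.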
